A study of Mus musculus with 17 samples.

Results

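The genes described are 6 transcripts that mark CD4 helper and regulatory T cells, Cd4, Zbtb7b, Cd40lg, Foxp3, Ikzf2 and Izumo1r, picked by symbol from a count table of 27240 genes. All 6 were present, and all 6 passed the filter on low counts, which left 20137 genes for testing. The question was whether these transcripts move together from library to library, as RNA of CD4 T cells left in the sort would.

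CD8 T cells had been isolated by flow cytometry from mouse lung tumours and profiled by bulk RNA sequencing in 17 libraries. KO mice lack PD-L1 in the endothelium, and WT mice do not. Cells were labelled core-enriched (macroscopic nodules) or rim-enriched (nodules within the lung tissue), called core and rim here. There were 6 KO core libraries (F219, F318, F319, F322, F86 and O), 5 WT core libraries (F164, H719, H873, H876 and 1 labelled as a pool), 4 KO rim libraries (F15, F322, F86 and O) and 2 WT rim libraries (H874 and H877). The labels do not name the strain, age, tumour model or Cre driver. They also do not tie libraries to animals, so p-values measure only the spread between libraries, which may be technical.

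CD4 and CD8 are the co-receptors that divide mature T cells into helper and cytotoxic lineages. ThPOK, the product of Zbtb7b, commits thymocytes to the CD4 lineage, while RUNX3 drives the CD8 lineage and silences Cd4. Foxp3 is the defining transcription factor of regulatory T cells, a suppressive CD4 population common in lung tumours; Helios (Ikzf2) and folate receptor 4 (Izumo1r) are further markers of that population in mice. CD40 ligand (Cd40lg) is the surface signal through which helper T cells activate B cells and dendritic cells. Helios, CD40 ligand and several regulatory T cell surface receptors can also be made by activated CD8 T cells.

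Total counts ran from 21767045 to 32566456 per library. The labelled cell type was checked on 10 T cell and CD8 identity markers, all 10 of which were detected in every group, with summed levels of 5001 to 9763 CPM, that is, read counts scaled to a common library total. KO rim F86 had the fewest detected genes, 16645. Reads from Y-linked genes exceeded 1 CPM in both O libraries, both F322 libraries and the WT core pool, which bears on the X-linked genes Cd40lg and Foxp3. In bulk RNA, fewer cells of a type and less RNA per cell cannot be told apart.

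The 6 transcripts differed in level and in how much they varied. Per kb of exon, the median level over the 17 libraries was highest for Izumo1r (13.8 CPM per kb), then Cd4 (6.84), Ikzf2 (4.45), Cd40lg (3.65), Zbtb7b (1.13) and Foxp3 (0.689 CPM per kb). In CPM, the highest library exceeded the lowest by 37.7-fold for Cd4 and 13.5-fold for Cd40lg, but by 9.32-fold for Izumo1r, 4.61-fold for Zbtb7b and 4.59-fold for Ikzf2. Foxp3 had 0 counts in 1 library and spanned 76.5-fold over the other 16. The plot of levels by library shows that, apart from Ikzf2 and Zbtb7b, which shared WT core F164, each gene had its maximum in a different library: it lay in KO core F318 for Cd4, WT rim H877 for Cd40lg, WT core H873 for Foxp3, WT core F164 for Ikzf2 and Zbtb7b, and KO core F86 for Izumo1r.

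**Figure D1:**
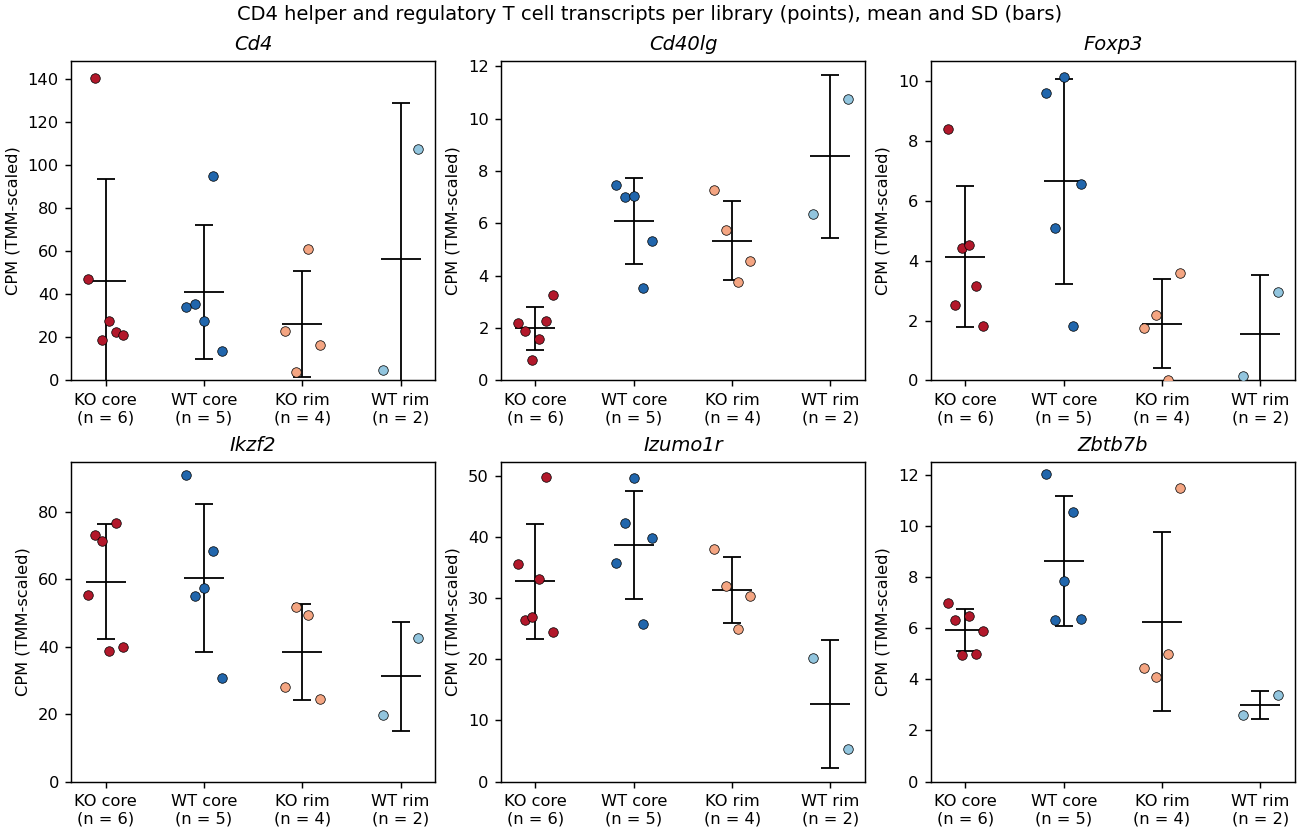
Level of each gene in CPM (linear axis, scaled by TMM factors) in the 17 libraries, 1 point per library, with the group mean (long bar) and SD (short bars, cut off at 0). KO core libraries lie below all WT core and all KO rim libraries for Cd40lg, and WT rim libraries lie below all others for Izumo1r and Zbtb7b; the Cd4 points include single high libraries in each group.

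Cd40lg set KO core apart. Its level was 0.799 CPM at the lowest, 2.04 CPM at the median and 3.28 CPM at the highest in KO core, against 3.54 (H876), 5.33 (pool), 7.01 (H719), 7.06 (H873) and 7.47 CPM (F164) in WT core. KO rim had 3.78 (F86), 4.56 (O), 5.76 (F322) and 7.26 CPM (F15), and WT rim had 6.36 (H874) and 10.7 CPM (H877). Every KO core library was lower than every library of the other groups, although the gap between KO core O and WT core H876 was small. Cd40lg averaged 2.0 ± 0.82 CPM in KO core (SD, n = 6) and 6.08 ± 1.64 CPM in WT core (SD, n = 5).

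The log2 fold change of Cd40lg was -1.60 (SE 0.352) for KO core over WT core, and its unadjusted p of 0.000311 was the second smallest of the 20137 genes. It did not pass adjustment over all genes in edgeR (adjusted p = 0.796), while DESeq2 called it (log2 fold change -1.61, adjusted p = 0.00706), and over all alternatives the adjusted p ran from 0.00706 to 1. Without the libraries holding Y-linked reads the log2 fold change was -1.81. For KO core over KO rim it was -1.41 (SE 0.368, edgeR adjusted p = 0.620), against -0.49 (SE 0.470, adjusted p = 0.630) for WT core over WT rim. The genotype effect in core minus that in rim was -0.92 (SE 0.618, edgeR adjusted p = 0.779), so a difference between sites in the genotype effect was not shown. B and plasma cell markers, cells that CD40 ligand acts on, had negative log2 fold changes in 11 of 11 genes for KO core over WT core, with a median of -0.91 against -0.01 over all genes. For KO core over KO rim 3 of the 11 were positive, with a median of -1.24 against 0.03, and 4 had an unadjusted edgeR p under 0.05, against 0 for KO core over WT core. None of the 11 was called by edgeR, DESeq2 or voom in either comparison, and their summed level was 227 to 4067 CPM in KO core, 555 to 2482 CPM in WT core and 364 to 1447 CPM in KO rim. Neutrophil and red blood cell markers had 0 of 5 positive each in both comparisons, with medians of -0.97 and -0.94 for KO core over WT core. Epithelial and tumour markers were positive in 7 of 7 genes for KO core over WT core. Over the 17 libraries, Cd40lg and the summed B and plasma cell markers had r = 0.22 and rho = 0.05 (log2 CPM). Without KO core F319 and KO core F86, r was -0.31. The part of any of these markers in the Cd40lg result was not tested.

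Izumo1r and Zbtb7b set WT rim apart instead. Izumo1r had 24.5, 30.03 and 49.9 CPM at the lowest, median and highest in KO core, and 25.8 (H876), 35.8 (F164), 39.9 (pool), 42.4 (H719) and 49.6 CPM (H873) in WT core. In the rim it had 24.9 (F86), 30.3 (O), 31.9 (F322) and 38.1 CPM (F15) in KO libraries, against 5.35 (H877) and 20.1 CPM (H874) in WT libraries. Both WT rim libraries lay below all others, and they differed from each other more than the 4 KO rim libraries did.

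For WT core over WT rim the log2 fold change of Izumo1r was 1.60 (SE 0.421, edgeR adjusted p = 0.0440), a 3.03-fold higher level in WT core. This call rested on few libraries. It was lost when H877 was left out (log2 fold change 0.96, adjusted p = 0.238), and likewise without H873 (0.0821), H719 (0.0776), the pool (0.0614) or F164 (0.0578), while it held without H874 (log2 fold change 2.85, adjusted p = 0.0196) or H876 (0.0320). Without the libraries holding Y-linked reads its adjusted p was 0.143. For KO rim over WT rim the log2 fold change was 1.29 (SE 0.423, edgeR adjusted p = 0.467). Between KO core and WT core it was -0.24 (SE 0.277) and between KO core and KO rim 0.06 (SE 0.296), neither past the threshold.

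Zbtb7b had 4.94, 6.11 and 6.98 CPM at the lowest, median and highest in KO core, and 6.33 (H719), 6.37 (pool), 7.86 (H873), 10.5 (H876) and 12.0 CPM (F164) in WT core. In the rim it had 4.11 (F322), 4.45 (F15), 4.99 (F86) and 11.5 CPM (O) in KO libraries, against 2.61 (H874) and 3.38 CPM (H877) in WT libraries. Both WT rim libraries again lay below all others, and KO rim O stood far above the other 3 KO rim libraries.

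The log2 fold change of Zbtb7b was 1.53 (SE 0.450) for WT core over WT rim. It missed the threshold in edgeR (adjusted p = 0.0707) and passed it in DESeq2 (adjusted p = 0.00656). For KO rim over WT rim it was 1.06 (SE 0.449, edgeR adjusted p = 0.642), and 0.60 without KO rim O. For KO core over WT core it was -0.54 (SE 0.297, edgeR adjusted p = 0.861). The genotype effect in core minus that in rim was -1.60 (SE 0.540, adjusted p = 0.539) for Zbtb7b and -1.54 (SE 0.502, adjusted p = 0.516) for Izumo1r, so in neither was a difference between sites shown by edgeR.

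Because Izumo1r and Zbtb7b stood lowest in the same pair of libraries, the 250 bases before their RefSeq starts (GRCm38.p6) are shown, with the Runx core motif TGTGGT or its reverse complement ACCACA in capitals. RUNX factors bind this core and control Zbtb7b during lineage choice. Izumo1r lies on chromosome 9 (GRCm38, 14885814 to 14903949, minus strand) and Zbtb7b on chromosome 3 (89377644 to 89394776, minus strand), for which RefSeq gives 2 starts. All sequences run 5′ to 3′ on the minus strand.
Izumo1r chr9:14903768-14904017: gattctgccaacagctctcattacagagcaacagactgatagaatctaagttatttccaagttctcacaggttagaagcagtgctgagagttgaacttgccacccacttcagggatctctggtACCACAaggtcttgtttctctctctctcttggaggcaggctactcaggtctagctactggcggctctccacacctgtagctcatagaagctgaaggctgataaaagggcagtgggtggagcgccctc
Zbtb7b chr3:89387672-89387921: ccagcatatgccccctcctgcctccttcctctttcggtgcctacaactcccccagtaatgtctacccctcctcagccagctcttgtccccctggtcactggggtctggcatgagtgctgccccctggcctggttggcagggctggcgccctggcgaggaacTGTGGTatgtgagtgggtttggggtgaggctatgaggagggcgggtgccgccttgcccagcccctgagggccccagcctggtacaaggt
Zbtb7b chr3:89393379-89393628: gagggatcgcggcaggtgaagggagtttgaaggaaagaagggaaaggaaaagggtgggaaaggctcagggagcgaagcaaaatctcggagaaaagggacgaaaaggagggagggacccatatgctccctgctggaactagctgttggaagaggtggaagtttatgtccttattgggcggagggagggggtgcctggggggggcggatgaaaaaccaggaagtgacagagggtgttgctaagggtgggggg
The motif occurs 1 time in the Izumo1r window and 1 time in the first Zbtb7b window, and has no match in the second Zbtb7b window or in either of 2 Foxp3 windows. Of 32851 RefSeq windows of the same length, 14.05% hold it on either strand. The forkhead core TGTTTAC or GTAAACA, searched on both strands and not overlapping the Runx core, has no match in these 5 windows and occurs in 3.17% of all windows. A match describes the letters and says nothing of binding in these cells.

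Cd4 itself varied most within groups. In KO core it had 18.9 CPM at the lowest, 25.1 CPM at the median and 140 CPM at the highest (F318), and in WT core 13.6 (pool), 27.7 (H873), 33.9 (F164), 35.7 (H719) and 94.7 CPM (H876). In KO rim it had 3.73 (F322), 16.5 (O), 22.8 (F15) and 60.9 CPM (F86), and in WT rim 4.77 (H874) and 107 CPM (H877). Each group held 1 library well above the rest, the groups overlapped throughout, and the SD was close to or above the mean in 3 of the 4 groups.

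Its log2 fold changes were 0.17 (SE 0.769) for KO core over WT core, -1.11 (SE 1.07) for KO rim over WT rim, 0.83 (SE 0.840) for KO core over KO rim and -0.45 (SE 1.04) for WT core over WT rim. None passed the threshold (smallest edgeR adjusted p = 0.834). The sign of 3 of these 4 turned with the removal of 1 library: the first was -0.57 without KO core F318 and -0.07 without the pool, and without WT rim H877 the second was 2.46 and the fourth 3.13. Relative to Cd8a, Cd4 had between 0.346 counts per 100 Cd8a counts (KO rim F322) and 12.6 (KO core F318), with a median of 1.80, uncorrected for transcript length.

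Foxp3 was the least abundant of the 6 per kb. It had 1.81, 3.78 and 8.41 CPM at the lowest, median and highest in KO core, and 1.82 (H876), 5.10 (H719), 6.57 (pool), 9.61 (F164) and 10.1 CPM (H873) in WT core. In KO rim it had no count in F86, where 3 counts would be 0.126 CPM, and 1.75 (F15), 2.20 (F322) and 3.61 CPM (O) in the others; in WT rim it had 0.133 (H874, 3 counts) and 2.96 CPM (H877). The groups overlapped in all 4 comparisons. The widest log2 fold change was 2.10 (SE 1.29) for WT core over WT rim, with an edgeR adjusted p of 0.420. For KO core over WT core it was -0.68 (SE 0.818, adjusted p = 1).

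Ikzf2 was read at a steadier level. It had 38.8, 63.3 and 76.7 CPM at the lowest, median and highest in KO core, and 30.6 (pool), 55.0 (H719), 57.2 (H873), 68.2 (H876) and 90.9 CPM (F164) in WT core. KO rim had 24.4 (O), 27.9 (F15), 49.5 (F86) and 51.6 CPM (F322), and WT rim had 19.8 (H874) and 42.5 CPM (H877). Core means exceeded rim means in both genotypes with overlapping libraries. The log2 fold change was 0.63 (SE 0.322, edgeR adjusted p = 0.648) for KO core over KO rim and 0.96 (SE 0.432, edgeR adjusted p = 0.253) for WT core over WT rim. KO core and WT core differed by -0.03 on the log2 scale (SE 0.296), and KO rim and WT rim by 0.30 (SE 0.430).

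The strand used in counting is not given in the sources used here, so reads of overlapping genes cannot be told apart. In the GENCODE annotation Foxp3 overlaps Flicr and Ccdc22, Ikzf2 and Zbtb7b overlap predicted genes, and Cd4, Cd40lg and Izumo1r overlap none.

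**Figure D2:**
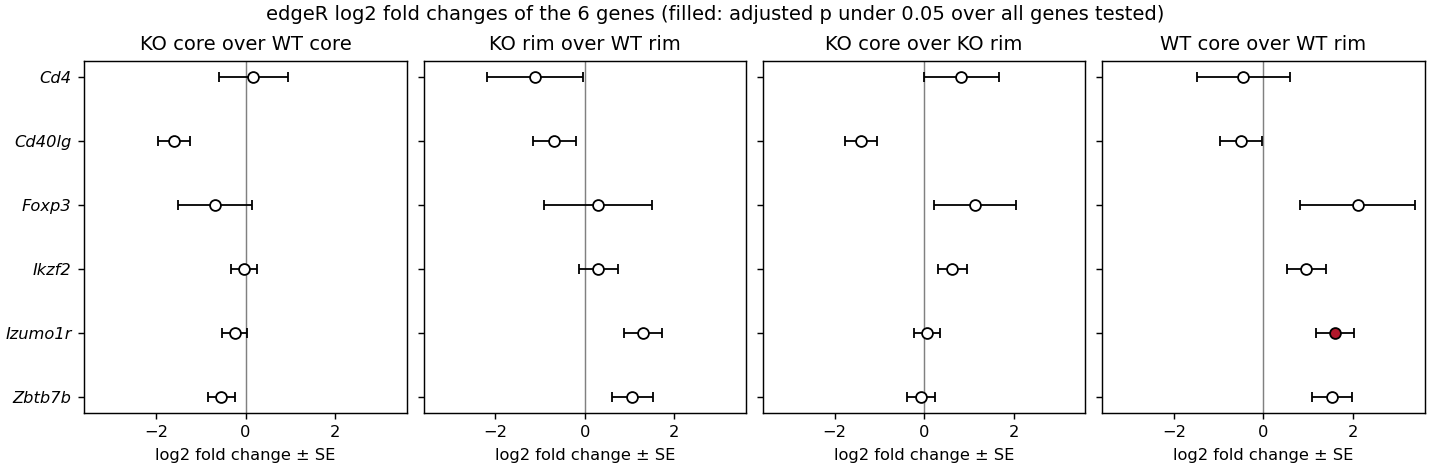
Log2 fold change (horizontal axis, bars ± SE) of each gene in the 4 comparisons, from 1 edgeR fit of all 17 libraries; filled points have an adjusted p under 0.05 over the 20137 genes. Izumo1r for WT core over WT rim, at 1.60, is the filled point; the comparisons that share a group share its libraries.

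Counted over the 6 genes, edgeR called 0 of 6 for KO core over WT core, where 0.0% of the 20137 genes were called. It called 0 of 6 for KO rim over WT rim (0.0% of all genes), 0 of 6 for KO core over KO rim (0.0%) and 0 of 6 for the difference in genotype effect between core and rim (0.0%). For WT core over WT rim it called 1 of 6, Izumo1r, where 3.86% of all genes were called. At an unadjusted p under 0.05 the genes passing were Cd40lg for KO core over WT core, Izumo1r and Zbtb7b for KO rim over WT rim, Cd40lg for KO core over KO rim, Ikzf2, Izumo1r and Zbtb7b for WT core over WT rim, and Izumo1r and Zbtb7b for the difference in genotype effect. Of all genes, 1244 passed at that level for KO core over WT core and DESeq2 called 12. The corresponding numbers were 1480 and 272 for KO rim over WT rim, 1600 and 33 for KO core over KO rim, 3617 and 1853 for WT core over WT rim, and 1547 and 159 for the difference in genotype effect. Of the 6, DESeq2 called Cd40lg for KO core over WT core and both Izumo1r and Zbtb7b for WT core over WT rim, and none of the 6 elsewhere. limma voom, run with and without the identifier as a block, called Izumo1r for WT core over WT rim and none elsewhere.

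Counts of genes whose libraries did not overlap between groups give the same genes without a test; this measure was chosen after the values were seen. Cd40lg, lower in KO core, was the 1 such gene of 6 for KO core over WT core, where 0.397% of all genes did not overlap, and again for KO core over KO rim, where 1.6% did not. Izumo1r and Zbtb7b were the 2 such genes for KO rim over WT rim, where 13.7% of all genes did not overlap, and for WT core over WT rim, where 19.8% did not; with 2 WT rim libraries this background is high.

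Whether the 6 transcripts moved together was examined as the correlation of log2 CPM over the 17 libraries for all 15 pairs. None passed a two-sided permutation test after adjustment over the 15 pairs by Pearson's r (smallest adjusted p = 0.369) or by Spearman's rho (smallest adjusted p = 0.0786). Cd4 and Foxp3, the pair that defines a regulatory CD4 cell, had r = 0.09 (permutation p = 0.717) and rho = 0.05 (p = 0.839). Without KO rim F86 and WT rim H874, the libraries farthest out in Foxp3, r was -0.02, and on deviations from group means it was -0.11.

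By rho, the strongest pairs involved Foxp3. By r, the highest were Foxp3 with Zbtb7b, then Cd4 with Ikzf2 and Izumo1r with Zbtb7b. Foxp3 and Zbtb7b had r = 0.51 (permutation p = 0.0369, adjusted 0.369) and rho = 0.61 (p = 0.0105, adjusted 0.0786). Their r fell to 0.25 without WT rim H874 and WT core F164, so r rests on those libraries, and it was 0.28 on deviations from group means. Their rho was 0.55 without WT rim H874 and 0.54 without WT core F164. Foxp3 and Izumo1r had r = 0.31 (permutation p = 0.183, adjusted 0.369) and rho = 0.64 (p = 0.00710, adjusted 0.0786), with r = 0.55 without both WT rim libraries and -0.06 on deviations from group means. Cd4 and Ikzf2 had r = 0.48 (permutation p = 0.0535, adjusted 0.369) and rho = 0.45 (adjusted 0.345), with r = 0.31 without WT rim H874 and 0.26 without WT rim H874 and KO rim O. Cd4 and Izumo1r had r = -0.30 (permutation p = 0.244, adjusted 0.407) and -0.65 on deviations (permutation p = 0.0775), and r was 0.026 without WT rim H877. Izumo1r and Zbtb7b had r = 0.43 (permutation p = 0.0924, adjusted 0.369) and rho = 0.36 (adjusted 0.475), with r = -0.32 on deviations. The highest r of Cd40lg with any of the other 5 genes was -0.06, with Foxp3.

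Ratios to Cd4 within a library also spread widely. They all share the Cd4 count as denominator, so they are not a separate measure of whether the genes moved together. Per 100 Cd4 counts, Foxp3 had from 0 counts in KO rim F86 to 59.1 in KO rim F322, with a median of 14.3. Cd40lg had from 1.35 (KO core F318) to 155 (KO rim F322), Izumo1r from 4.98 (WT rim H877) to 857 (KO rim F322), Zbtb7b from 3.14 (WT rim H877) to 110 (KO rim F322), and Ikzf2 from 39.6 (WT rim H877) to 1386 (KO rim F322). KO rim F322, lowest in Cd4, had the highest of all 5 ratios.

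**Figure D3:**
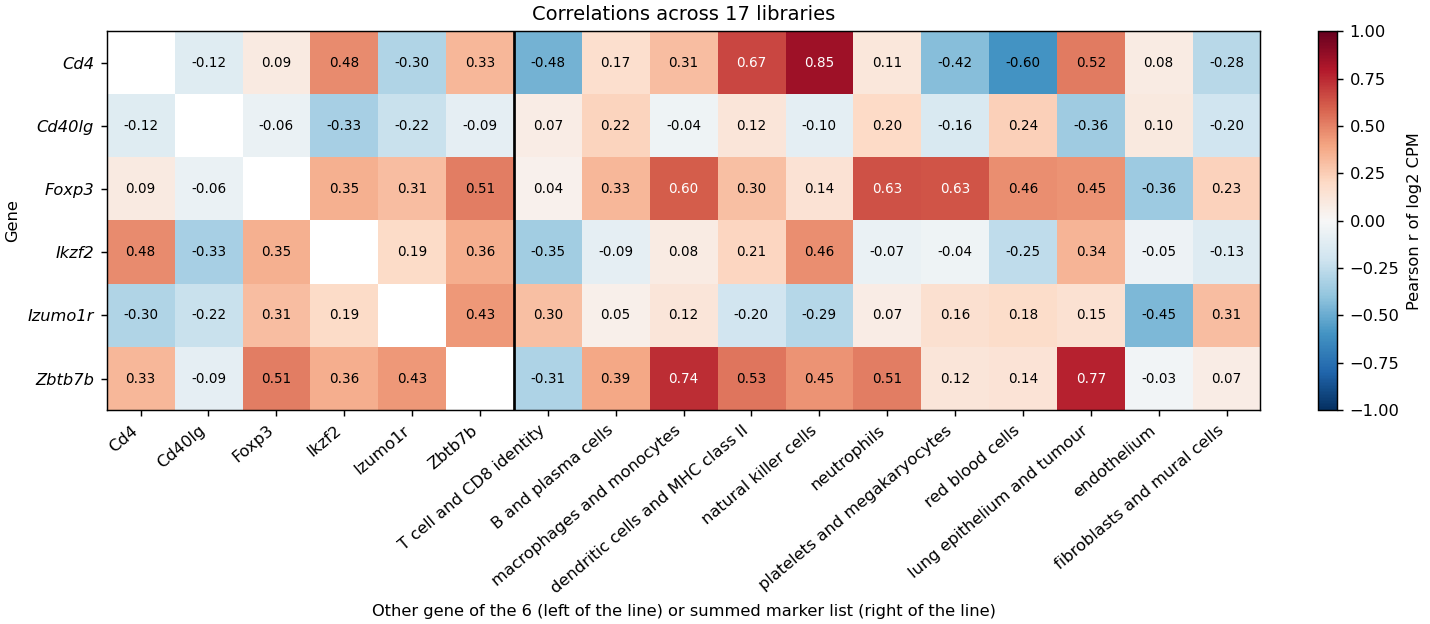
Pearson r of log2 CPM over the 17 libraries between each of the 6 genes (rows) and the other 5 (left of the line) or the summed CPM of 11 marker lists (right of the line), from -1 (blue) to 1 (red). No pair left of the line passed the permutation test after adjustment; right of it, Cd4 with the natural killer list (0.85) and Zbtb7b with the epithelial (0.77) and macrophage (0.74) lists did.

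Markers of other cells were set beside the 6 genes as summed CPM of 11 lists, giving 66 pairs. Nearly all markers were detected in each group; Ly6g and Nkx2-1 were at 0 in WT rim. Cd4 followed the list of 6 natural killer genes (r = 0.85, permutation p = 4e-05, adjusted 0.00264; rho = 0.83, adjusted 0.00528; r = 0.77 without WT core H876 and KO core F318; 0.85 on deviations from group means). This list summed to 114 to 569 CPM in KO core, 83.9 to 589 CPM in WT core, 94.7 to 230 CPM in KO rim and 70.5 to 381 CPM in WT rim. In the libraries highest in Cd4 it was mostly Tyrobp, an adaptor that myeloid cells also make, with 457 of 569 CPM in KO core F318 and 500.3 of 589 CPM in WT core H876. The other 5 genes of the list had lower r with Cd4: 0.66 for Klra4, 0.56 for Ncr1, 0.47 for Klrb1c, 0.25 for Klra8 and -0.12 for Eomes. For Cd4 and the list of 10 dendritic cell and MHC class II genes, r was 0.67 (permutation p = 0.00337, adjusted 0.0556) and rho 0.69 (adjusted 0.0391). No such relation passed for Foxp3, Cd40lg or Ikzf2 with any list, by r or by rho. In WT core H876, Cd74 and H2-Ab1 made up 11439 and 5385 of the 23567 CPM of the dendritic cell and MHC class II list.

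Zbtb7b followed the list of 8 lung epithelium and tumour genes (r = 0.77, permutation p = 0.00034, adjusted 0.0112; rho = 0.75, adjusted 0.0279; r = 0.73 without WT rim H874 and KO core F219; 0.86 on deviations) and that of 12 macrophage and monocyte genes (r = 0.74, permutation p = 0.00059, adjusted 0.0130; rho = 0.71, adjusted 0.0337; r = 0.72 without KO rim O and KO rim F86; 0.80 on deviations). With each identifier counted once, both had an adjusted p of 0.0749 (r = 0.72 and r = 0.70). The epithelial list summed to 184 to 803 CPM in KO core, 94.7 to 466.1 CPM in WT core, 63.2 to 661 CPM in KO rim and 34.8 to 144 CPM in WT rim, and the macrophage list to 1916 to 5368 CPM in KO core, 1970 to 5792 CPM in WT core, 1156 to 7443 CPM in KO rim and 1344 to 2816 CPM in WT rim. KO rim O, which stood apart in Zbtb7b, held the highest sum of both lists among the rim libraries. The epithelial sum was mostly Cdh1 in most libraries, with 362 of 406 CPM in KO core F318 and 282 of 373 CPM in WT core H876. In KO rim F86 Cdh1 was 157 of 171 CPM. In KO rim O it was 122 of 661 CPM, where Sftpc had 269 CPM. Epcam was at most 5.10 CPM (KO core F322). Of the macrophage sum, Lyz2 made up 5145 of 7443 CPM in KO rim O and 3711 of 5479 CPM in WT core F164. In KO core F318 it made up 795 of 2372 CPM. The part of both lists in the Zbtb7b values was not tested. Izumo1r passed with the endothelial list by rho alone (rho = -0.73, adjusted 0.0279; r = -0.45, adjusted 0.280; -0.24 on deviations).

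Single genes of the dendritic and natural killer lists were then read one by one, a step chosen after the values were seen, with adjustment over 96 pairs of the 6 genes and 16 markers. Cd4 passed with 10 of the 16 by r and with 5 by rho. The largest r were those with Flt3, a dendritic cell growth factor receptor (r = 0.88, permutation p = 1e-05, the smallest the permutations can give, adjusted 0.00096), Tyrobp (r = 0.86, adjusted 0.00096) and Siglech, a receptor of plasmacytoid dendritic cells (r = 0.79, permutation p = 0.00013, adjusted 0.00416; rho = 0.89, adjusted 0.00096). Markers of conventional dendritic cells passed by r as well, with 0.77 for Clec9a (adjusted 0.00922), 0.76 for Itgax (adjusted 0.00912), 0.74 for Zbtb46 (adjusted 0.0110) and 0.66 for Xcr1 (adjusted 0.0396). H2-Aa, H2-Ab1 and Klra4 also passed by r (each adjusted 0.0396). H2-Eb1 and Cd74 (each adjusted 0.0714), Klrb1c, Ncr1, Klra8 and Eomes did not. By rho, Clec9a (adjusted 0.0134) and Itgax (adjusted 0.0486) passed. Zbtb46, H2-Aa and H2-Ab1 (each adjusted 0.0564) and Xcr1 (rho = 0.40, adjusted 0.354) did not pass by rho. Of the other 5 transcripts, Zbtb7b and Ikzf2 passed by r with Klra4 alone (r = 0.73, adjusted 0.0110, and r = 0.66, adjusted 0.0396), and none passed by rho. On deviations from group means, Zbtb7b passed with Klra4 (adjusted 0.0191), Itgax (0.68, adjusted 0.00768), Ncr1 (0.57, adjusted 0.0119) and H2-Aa (0.70, adjusted 0.0157). It also passed there with H2-Ab1, H2-Eb1 and Cd74 (each adjusted 0.0165), but not with Flt3 (0.34) or Siglech (0.21). With the whole dendritic cell and MHC class II list, Zbtb7b had 0.67 on deviations (adjusted 0.0175). The relation of Cd4 with Siglech had r = 0.86 without KO rim O and the WT core pool, and 0.79 on deviations from group means. For Siglech, r was 0.61 with Ikzf2 (adjusted 0.0714), 0.10 with Zbtb7b, -0.10 with Foxp3, -0.13 with Cd40lg and -0.34 with Izumo1r. In the mouse, plasmacytoid dendritic cells and some conventional ones can carry CD4.

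Siglech had 15.9, 87.4 and 1433 CPM at the lowest, median and highest in KO core, and 1.08 (pool), 24.1 (H719), 137 (H873), 257 (F164) and 1174 CPM (H876) in WT core. KO rim had 0.746 (O), 3.77 (F322), 4.78 (F15) and 509 CPM (F86), and WT rim had 13.4 (H874) and 849 CPM (H877). The library highest in Siglech in each group, KO core F318, WT core H876, KO rim F86 and WT rim H877, was also the highest in Cd4. In those 4 libraries Foxp3 was at 2.53, 1.82, 0 and 2.96 CPM. The part of dendritic cell RNA in the Cd4 level was not tested.

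**Figure D4:**
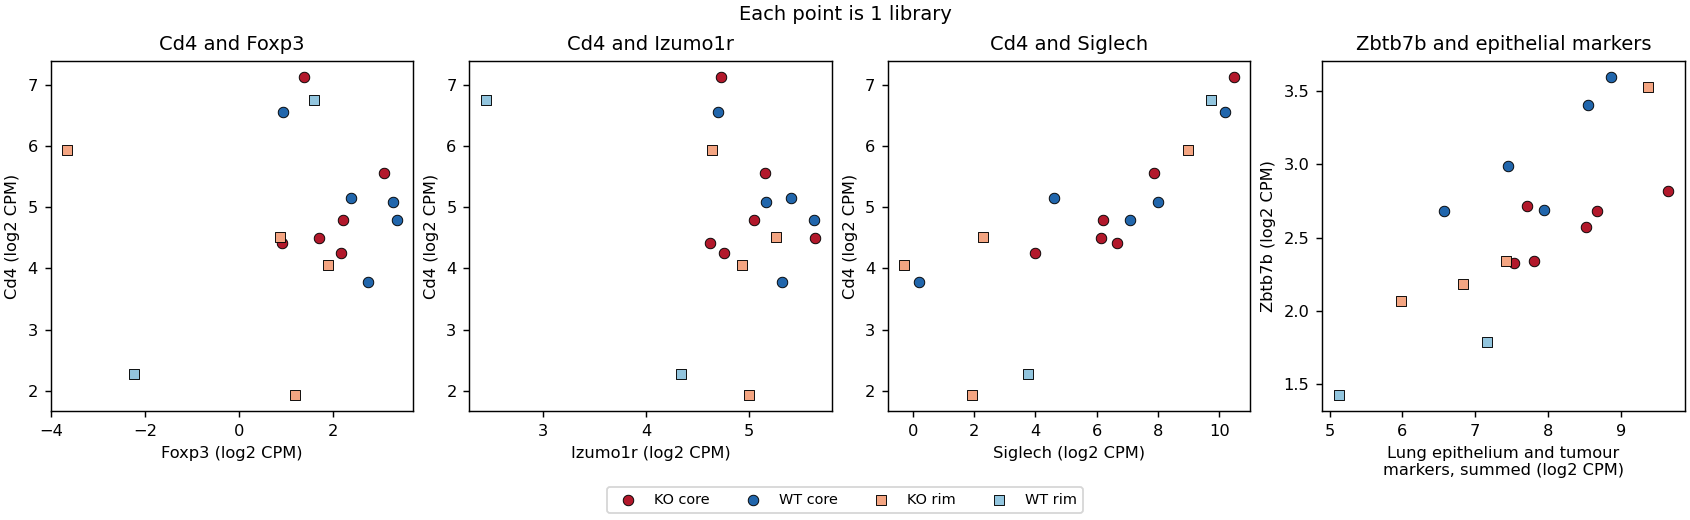
Log2 CPM of Cd4 against Foxp3, Izumo1r and Siglech, and of Zbtb7b against the summed epithelial and tumour markers; each point is 1 of the 17 libraries (circles core, squares rim; red KO, blue WT). Cd4 shows r = 0.09 with Foxp3, -0.30 with Izumo1r and 0.79 with Siglech, and Zbtb7b shows r = 0.77 with the epithelial sum.

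The genes whose log2 CPM was most like each transcript over the 17 libraries, among 9770 genes averaging 5 CPM or more, differed from gene to gene. For Cd4 they were Hmgn3 (r = 0.94), Grn, Irf8, Csf2rb2 and Klra17 (r = 0.92), and the values were 0.87 to 0.93 without KO rim F322 and WT rim H874. For Izumo1r they were Ptpn5 (r = 0.94), Cenpf, Bcat1, Ccr8 and Coch (r = 0.89), which came to 0.45 to 0.68 without the WT rim libraries. For Foxp3 they were Bst1 (r = 0.84), Cxcl1, Aoah, Aldh7a1 and Rbp4 (r = 0.83), which came to 0.30 to 0.49 without KO rim F86 and WT rim H874. For Zbtb7b they were S100a1 (r = 0.86), Vwa5a, Etfa, Cd81 and Znhit1 (r = 0.84), for Ikzf2 Sting1 (r = 0.80), Nsmce2, Galk1, Galk2 and Bid (r = 0.74), and for Cd40lg Itsn2 (r = 0.75), Tbc1d32, Slc35d1, Cr2 and Tshz1 (r = 0.70). Cd4, Ikzf2, Izumo1r and Zbtb7b were abundant enough to be ranked themselves, and none stood among the 5 most alike of another of the 6.

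Other genes of these pathways were read from lists. Of 18 other regulatory T cell genes, 4 rose in WT core over WT rim and none fell, where 3.86% of all genes were called in either direction. These were Tnfrsf4 (OX40; log2 fold change 3.41, SE 0.512, edgeR adjusted p = 0.00409), Ccr8 (2.96, SE 0.645, adjusted p = 0.0204), Il2ra (CD25; 2.10, SE 0.478, adjusted p = 0.0240) and Tigit (1.93, SE 0.461, adjusted p = 0.0300). DESeq2 called 7 of the 18, these 4 among them, while voom called Tnfrsf4 and Il2ra and neither Ccr8 nor Tigit. The list had 16 of 18 positive log2 fold changes and a median of 1.27, against 0.03 over all genes. Tnfrsf4 averaged 94.3 ± 34.5 CPM in WT core (SD, n = 5) and 8.86 ± 0.653 CPM in WT rim (SD, n = 2), with 68.7 ± 24.6 CPM in KO core (SD, n = 6) and 55.0 ± 22.5 CPM in KO rim (SD, n = 4). For KO rim over WT rim the list had 17 of 18 positive values and a median of 1.15 against 0.01, with none called by edgeR or voom and 5 at an unadjusted p under 0.05. Tnfrsf4 (log2 fold change 2.63, edgeR adjusted p = 0.0960) and Tigit (1.92, adjusted p = 0.258) had the smallest unadjusted p, and DESeq2 called both and Ccr8. For the genotype effect in core minus that in rim, 2 of 18 were positive with a median of -1.33 against -0.01; edgeR called none, with 5 at an unadjusted p under 0.05, and DESeq2 called Tnfrsf4 and Ccr8. These comparisons share the 2 WT rim libraries with those of Izumo1r. For KO core over WT core 6 of 18 were positive with a median of -0.23 against -0.01, and for KO core over KO rim 11 of 18 with a median of 0.15 against 0.03. None was called in either by edgeR, DESeq2 or voom, and 0 and 1 of the 18 had an unadjusted edgeR p under 0.05.

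Macrophage, epithelial, fibroblast and neutrophil markers stood mostly on the same side in the comparisons with WT rim, while markers of several other cells did not. For WT core over WT rim, 10 of 12 macrophage and monocyte genes were positive (median 1.55), as were 7 of 7 epithelial and tumour genes (median 1.999), 6 of 6 fibroblast and mural genes (median 1.69) and 5 of 5 neutrophil genes (median 1.14). Of these edgeR called C1qb and C1qc, subunits of a complement protein made by macrophages (adjusted p = 0.0328 and 0.0335), DESeq2 called 5 macrophage genes and Epcam, an epithelial adhesion molecule, and voom none. For KO rim over WT rim, 10 of 12 macrophage genes (median 1.32), 7 of 7 epithelial genes (median 3.15), 5 of 6 fibroblast genes (median 2.42) and 4 of 5 neutrophil genes (median 0.43) were positive; edgeR called none of these and DESeq2 called C1qa, C1qb, C1qc and Epcam. For the genotype effect in core minus that in rim, the medians were -1.68, -1.56, -1.36 and -1.60 in the order macrophage, epithelial, fibroblast and neutrophil. The fibroblast list summed to 0.809 to 126 CPM in KO core, 9.25 to 38.3 CPM in WT core, 7.51 to 80.0 CPM in KO rim and 3.52 to 4.60 CPM in WT rim, and the neutrophil list to 33.6 to 141 CPM in KO core, 99.6 to 293 CPM in WT core, 10.1 to 211 CPM in KO rim and 55.1 to 112 CPM in WT rim. The 10 T cell and CD8 identity genes had a median of 0.13 in both comparisons. For WT core over WT rim they ran from -0.51 to 0.79, with 6 positive and 2 at an unadjusted edgeR p under 0.05. DESeq2 called Cd8a there, at 758 (H874) and 868 CPM (H877) in WT rim and 878 (H876) to 1983 CPM (H719) in WT core. For KO rim over WT rim they ran from -0.19 to 0.59, with 7 positive. No other gene of this list was called by edgeR, DESeq2 or voom in these 2 comparisons. Several other lists were mixed or went the other way. For WT core over WT rim, 3 of 11 B and plasma cell genes were positive (median -0.81). So were 7 of 10 dendritic cell and MHC class II genes (median 0.50) and 5 of 6 natural killer genes (median 0.40). For KO rim over WT rim the values were 2 of 11 (median -0.58), 0 of 10 (median -0.52) and 2 of 6 (median -0.32). The part of these markers in the values of the regulatory T cell list, Izumo1r and Zbtb7b was not tested.

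Of 19 other helper T cell genes, 17 were tested, and edgeR and voom called none in any comparison. DESeq2 called Il17a for KO core over WT core and Ccr6 in the 3 comparisons that use WT rim, and 1 to 3 of the 17 had an unadjusted edgeR p under 0.05 in each comparison. For KO core over WT core the smallest unadjusted p belonged to Il17a, the cytokine of TH17 and gamma delta T cells, which averaged 0.103 ± 0.107 CPM in KO core (SD, n = 6) and 1.74 ± 1.17 CPM in WT core (SD, n = 5; edgeR adjusted p = 0.796). For KO rim over WT rim and for WT core over WT rim it belonged to Ccr6, a chemokine receptor of TH17 cells (log2 fold change 3.21, adjusted p = 0.515, and 3.52, adjusted p = 0.0956). For KO core over KO rim it belonged to Cxcr5, the receptor that guides follicular helper cells to B cells (-1.07, edgeR adjusted p = 0.620).

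Among 12 regulators of CD4 and CD8 lineage choice, 1 was called in WT core over WT rim, Tox, required for CD4 lineage development in the thymus and abundant in exhausted CD8 cells (log2 fold change 1.58, SE 0.420, edgeR adjusted p = 0.0462), against 3.86% of all genes. DESeq2 also called Tox there, with Lef1 and Satb1, and voom called none of the 12. Zbtb16, the regulator of innate-like T cells, had the smallest unadjusted p for KO core over WT core (0.477 ± 0.389 CPM in KO core, n = 6, and 3.05 ± 2.26 CPM in WT core, n = 5, SD; edgeR adjusted p = 0.796). Of the 5 Ikaros genes, which include Ikzf2, Ikzf5 was lower in WT core than in WT rim (log2 fold change -0.93, SE 0.224, adjusted p = 0.0309). Of 7 genes of CD40 signalling, which include Cd40lg, Traf6, an adaptor of CD40, was also lower there (-0.80, SE 0.202, adjusted p = 0.0366), and Cd40 itself was called in no comparison. Folr2, the other folate receptor gene tested beside Izumo1r, averaged under 1 CPM in every group and was not called.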

How the data were processed

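RNA of CD8 T cells was extracted with the Qiagen RNeasy Micro Kit and made into TruSeq RNA libraries, per the labels' protocols. The authors deposited whole-number read counts for each gene symbol, not normalized, in 1 column per sample. Tools named in the submitters' processing notes are featureCounts, Subread 2.0.0, HISAT2, cutadapt 3.2 and Bowtie2 2.4.5, with GRCm38 and mm10 as builds and no order or settings. Each column was matched to its sample by the label that carries its name, and libraries were grouped by labelled genotype and site.

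Counts were fitted with edgeR 4.0.16 in R 4.3.3: filterByExpr with the 4 groups left 20137 genes, TMM factors scaled the libraries, and a robust quasi-likelihood model took all 17 libraries in 1 fit without a block. Two-sided F tests were adjusted by Benjamini-Hochberg over the 20137 genes, with 0.05 as the threshold of a call. A fold change is on the log2 scale, its SE is its size over the square root of F, and CPM uses the scaled totals. Correlations used log2 CPM with a prior count of 2 and two-sided permutation tests with 100000 resamples, adjusted over the 15 pairs of the 6 genes, the 66 pairs with marker lists and the 96 pairs with single markers, and were repeated on deviations from group means permuted within groups. DESeq2 1.42.0, limma 3.58.1 voom, other scalings, no filter, libraries left out in turn, libraries without Y-linked reads and a block by identifier were tried; voom without a block was added after seeing the data. Fit and correlations were tested on simulated data. Counts this deep limit precision mainly for Foxp3 and Cd40lg. A floor of 3 counts covers counting error only.

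The 6 genes and all lists were chosen with earlier results of these data known. Named genes are the 6, each called gene of 6 related lists or, where none was called, up to 2 with the smallest unadjusted p, and for each of the 6 the 5 most alike by Pearson r. The single dendritic cell and natural killer markers, the C1q genes, Epcam, Cd40, Lyz2 and the Cd8a call were singled out after their values were seen. Exon lengths and overlaps are from GENCODE (GRCm38), and promoter windows from RefSeq (GRCm38.p6), which gave 5 windows for Foxp3, Izumo1r and Zbtb7b.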

Additional observations from a re-analysis of the deposited data

Results flagged for a closer look

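Of 18 sets of levels tested, the 6 genes in each of the 3 groups with at least 4 libraries, 3 held a library whose gap to its nearest neighbour was wide relative to the range of its group (Dixon's test at the 95% level); chance flags about 1 in 20 groups. Cd4 was at 140 CPM in KO core F318, against 18.9 to 47.2 CPM in the other 5 KO core libraries. Cd4 was at 94.7 CPM in WT core H876, against 13.6 to 35.7 CPM in the other 4 WT core libraries. Both libraries were the highest of their group in Siglech. Zbtb7b was at 11.5 CPM in KO rim O, against 4.11 to 4.99 CPM in the other 3 KO rim libraries.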

How the results depend on the processing

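The 6 genes' calls depended on the tool and on single libraries. DESeq2 called 1 of the 6 for KO core over WT core (12 of all genes) and 2 for WT core over WT rim (1853 of all genes), and 272, 33 and 159 of all genes for KO rim over WT rim, KO core over KO rim and the difference in genotype effect. Without a filter 2 genes were called for KO rim over WT rim and 4 for the difference in genotype effect. Without the libraries holding Y-linked reads, 0 of the 6 and 313 genes were called for WT core over WT rim. Leaving out 1 library at a time, the count for WT core over WT rim ran from 0 to 1 of the 6 and from 68 to 795 of all genes; it ran from 0 to 26 of all genes for KO rim over WT rim and from 0 to 14 for the difference in genotype effect.

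The replicate numbers O, F86 and F322 occur in both KO groups. Deviations of same-numbered libraries correlated at 0.08, 0.04 and 0.07, and each core library correlated best with its own identifier. Y-linked reads were also alike in core and rim, at 511 and 480 CPM for O, 449 and 503 CPM for F322, and 0 in both for F86. The labels do not state that identifiers mark animals, so the main fit took no block. If they do, tests and permutations without a block treat paired libraries as independent. With the identifier as a block, voom called 9 of all genes for KO rim over WT rim and 2 for KO core over KO rim; voom without a block called 9 for KO rim over WT rim. The block changed no call on the 6 genes. On the 6 KO libraries with shared identifiers, edgeR with the block gave Cd40lg a log2 fold change of -1.03 for KO core over KO rim.

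Directions turned only where the log2 fold change was not past the threshold. By voom, with the block and without it, Cd4 was 0.65 for WT core over WT rim and Zbtb7b 0.036 with the block and 0.040 without it for KO core over KO rim. Without Y-linked libraries, Ikzf2 was 0.026 for KO core over WT core, Foxp3 -0.83 for KO rim over WT rim and 0.30 for the difference in genotype effect, and Zbtb7b 0.30 for KO core over KO rim. Leaving out 1 library, the ranges that crossed 0 were, for KO core over WT core, Cd4 -0.57 to 0.72 and Ikzf2 -0.21 to 0.15; for KO rim over WT rim, Cd4 -2.05 to 2.46, Foxp3 -0.65 to 3.80 and Ikzf2 -0.15 to 0.97; for KO core over KO rim, Izumo1r -0.10 to 0.18 and Zbtb7b -0.23 to 0.39; for WT core over WT rim, Cd4 -1.38 to 3.13; and for the difference in genotype effect, Cd4 -2.30 to 2.21 and Ikzf2 -1.01 to 0.12. The correlation of Cd4 and Foxp3 was -0.11 on deviations, -0.0051 in KO core alone and -0.19 to 0.35 leaving out 1 library, and that of Foxp3 and Izumo1r -0.057 on deviations and 0.25 to 0.66 leaving out 1 library. No pair of the 6 passed under any of the 22 alternatives. The causes were not tested. WT rim has 2 libraries, so with 1 left out the lone one is assumed to vary like the other groups.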

Other observations

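Of the marker lists, the smallest permutation p for Foxp3 over the 17 libraries belonged to macrophages and monocytes (r = 0.60, permutation p = 0.00699, adjusted 0.0923), neutrophils (r = 0.63, permutation p = 0.0107, adjusted 0.111) and platelets and megakaryocytes (r = 0.63, permutation p = 0.0170, adjusted 0.140), none past adjustment over 66 pairs. Without KO rim F86 and 1 further library the values were 0.52 for macrophages, 0.29 for neutrophils and 0.17 for platelets. Spearman's rho was 0.46 (adjusted 0.324), 0.40 (adjusted 0.394) and 0.35 (adjusted 0.531) in the same order. KO rim F86 had 0 Foxp3 counts, the fewest detected genes, and the lowest summed neutrophil markers, 10.1 CPM, and platelet markers, 0.294 CPM, of its group.

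The list of 10 T cell and CD8 identity genes had r = -0.48 with Cd4 (permutation p = 0.0532, adjusted 0.280) and 0.30 with Izumo1r (permutation p = 0.230, adjusted 0.556). Its sum was lowest in WT core H876 (5001 CPM) and KO core F318 (5873 CPM), the libraries highest in Cd4 within their groups, and r with Cd4 was -0.13 without them.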
